A study of Mus musculus with 12 samples.

Results

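The DNA methylation of biparental female embryonic stem cells (ESCs) was compared with that of the primordial germ cell-like cells (ESC-PGCLCs) derived from them. A feature was taken into the comparison when it had a methylation level in both ESC libraries and in both ESC-PGCLC libraries, whatever that level was. This held for 137821 of the 176831 features that had a level in at least 1 of the 12 libraries of the series. The parthenogenetic counterparts of these cells (pESCs and pESC-PGCLCs) did not enter this choice. Levels in ESC-PGCLCs were above those in ESCs for the X chromosome, oocyte-methylated imprinted genes, promoters of germline genes and B1 and B2 repeats. The libraries of both groups overlapped for several other repeats, among them internal parts of IAP and L1MdA. Relative to the median of each library on the log2 odds scale, the median changes of X-linked islands and of the imprinted and germline promoters stayed positive, whereas those of B1 and B2 turned negative.

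The series measured methylation by reduced representation bisulfite sequencing (RRBS), in which MspI cuts genomic DNA at CCGG and bisulfite separates methylated from unmethylated cytosines. Its 6 groups of 2 libraries were ESCs, pESCs, the PGCLCs induced from each, and primordial germ cells (PGCs) from embryos at E9.5 and E12.5. All were of the C57BL6 strain, and the ESCs were a female line. For induction, cells were cultured for 2 days with KSR, bFGF and activin A to form epiblast-like cells, and then for 4 days with 1000 IU of LIF, BMP4 at 500 ng/ml, SCF at 100 ng/ml and EGF at 50 ng/ml. According to the study's methods, the ESCs carried a beta-actin GFP transgene and were maintained with serum and LIF on feeders. An inhibitor medium is described for the passages before PGCLC induction, and PGCLCs were sorted by SSEA1 and CD61. The methods do not state in which medium the ESCs taken for RRBS were grown. The labels do not say whether the 2 libraries of a group came from separate cultures, so every p-value measures the spread between these libraries only.

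DNA methylation at CpG sites is set by DNMT3 enzymes, copied at replication by DNMT1 with UHRF1, and removed through TET enzymes or by dilution. Naive ESCs kept in inhibitor medium have low methylation, the epiblast gains it on the way to implantation, and PGCs then lose it as they migrate and reach the gonad. Not all sequences are cleared at the same time, and imprinted loci lose their marks later than most of the genome.

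The levels were deposited as the share of methylated CG calls in each feature, without read counts, so the depth behind a value is unknown. Levels are written as percentages and their differences in points of percent. The ESC libraries were the less alike pair. Their levels lay at least 10 points apart at 25% of the features, against 4.80% for the ESC-PGCLC pair, and ESC replicate 1 was the higher at 57.2% of features. For that reason a difference was called only when both ESC-PGCLC levels lay on the same side of both ESC levels. The means also had to differ by at least 10 points and the adjusted p to be below 0.05. Allowing overlap of replicates gave the same 12487 higher and 647 lower calls, so the first condition removed none. When a library was left out, a feature's within-group spread came only from the pair of the other group. Calls gained or lost in such fits cannot be told apart from that change.

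The sequences below belong to features on which the results turn, namely the promoters with the largest gains, a germline gene, an imprinted gene, a gene that escapes X inactivation, the promoter with the largest loss, and the CpG island with the largest loss. They are given on GRCm38 in the 5′ to 3′ direction with each CG dinucleotide in capitals. Promoter windows are RefSeq's, from 250 bases before to 50 bases after the gene start, and need not match the promoters behind the deposited levels, whose definition is not given in the sources used here. Dppa3 and Dppa5a were not matched to a RefSeq window.
Rbm41 promoter (chrX:139998546-139998845, minus strand): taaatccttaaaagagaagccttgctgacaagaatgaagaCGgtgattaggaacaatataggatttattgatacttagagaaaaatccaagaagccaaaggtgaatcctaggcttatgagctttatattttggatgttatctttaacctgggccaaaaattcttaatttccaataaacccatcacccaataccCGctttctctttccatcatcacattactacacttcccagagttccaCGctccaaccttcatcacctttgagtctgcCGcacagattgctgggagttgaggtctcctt
Mbd3 promoter (chr10:80399482-80399781, minus strand): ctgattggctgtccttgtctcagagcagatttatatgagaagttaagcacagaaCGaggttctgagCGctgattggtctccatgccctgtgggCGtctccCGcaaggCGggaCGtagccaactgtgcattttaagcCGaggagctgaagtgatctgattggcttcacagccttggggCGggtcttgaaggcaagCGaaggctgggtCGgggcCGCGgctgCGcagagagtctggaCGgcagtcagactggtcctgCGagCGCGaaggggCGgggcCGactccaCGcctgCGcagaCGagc
Ddx4 promoter (chr13:112652261-112652560, minus strand): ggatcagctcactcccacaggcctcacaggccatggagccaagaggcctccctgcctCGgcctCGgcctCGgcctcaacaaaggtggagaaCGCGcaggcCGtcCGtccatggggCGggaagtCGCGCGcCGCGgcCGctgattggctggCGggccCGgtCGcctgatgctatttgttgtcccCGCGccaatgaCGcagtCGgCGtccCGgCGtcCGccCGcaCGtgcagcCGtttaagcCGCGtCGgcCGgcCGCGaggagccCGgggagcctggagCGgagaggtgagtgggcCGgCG
Zrsr1 promoter (chr11:22971755-22972054, plus strand): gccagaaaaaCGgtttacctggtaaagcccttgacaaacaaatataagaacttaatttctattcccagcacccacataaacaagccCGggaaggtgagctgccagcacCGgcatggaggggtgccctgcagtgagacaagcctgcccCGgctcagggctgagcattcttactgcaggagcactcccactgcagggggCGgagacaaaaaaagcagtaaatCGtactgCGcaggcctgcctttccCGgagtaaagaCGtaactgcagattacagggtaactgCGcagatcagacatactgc
Eif2s3x promoter (chrX:94212602-94212901, minus strand): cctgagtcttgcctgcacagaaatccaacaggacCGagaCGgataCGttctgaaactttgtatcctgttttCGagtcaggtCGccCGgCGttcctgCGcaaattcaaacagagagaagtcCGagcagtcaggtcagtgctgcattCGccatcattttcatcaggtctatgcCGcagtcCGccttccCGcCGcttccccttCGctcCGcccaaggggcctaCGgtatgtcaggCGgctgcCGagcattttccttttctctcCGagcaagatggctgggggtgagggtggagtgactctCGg
Srp9 promoter (chr1:182124487-182124786, plus strand): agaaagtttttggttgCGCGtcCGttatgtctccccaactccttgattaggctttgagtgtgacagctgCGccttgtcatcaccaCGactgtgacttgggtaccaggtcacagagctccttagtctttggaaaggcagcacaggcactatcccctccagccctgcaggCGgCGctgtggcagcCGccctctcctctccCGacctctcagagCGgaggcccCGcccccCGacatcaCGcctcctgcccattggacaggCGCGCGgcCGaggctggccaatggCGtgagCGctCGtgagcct
CpG island at Mthfsl (chr9:88719533-88719828, plus strand): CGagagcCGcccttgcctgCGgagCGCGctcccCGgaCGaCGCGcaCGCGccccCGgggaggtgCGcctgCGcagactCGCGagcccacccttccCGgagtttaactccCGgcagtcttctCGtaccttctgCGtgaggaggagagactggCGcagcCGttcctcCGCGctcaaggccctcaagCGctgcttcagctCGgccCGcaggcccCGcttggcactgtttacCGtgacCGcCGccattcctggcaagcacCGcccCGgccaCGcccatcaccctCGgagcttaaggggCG
The Ddx4 window held 38 CG dinucleotides and the Rbm41 window 4. The MspI site CCGG, which reads the same on both strands, was found 5 times in the Ddx4 window and in none of the Rbm41, Mbd3 and Srp9 windows, while 75.5% of the windows at the 18871 tested promoters on the autosomes and the X held at least 1.

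Mean methylation was higher in ESC-PGCLCs in each of the 8 classes of features. CpG islands had 3.81% and 3.46% in the ESC libraries and 5.94% and 5.95% in the ESC-PGCLC libraries. Promoters had 15.8% and 13.0% in ESCs against 19.08% and 18.98% in ESC-PGCLCs. Repeats had 50.8% and 42.2% against 53.8% and 53.9%. In every class both ESC-PGCLC libraries lay above both ESC libraries, and the gap between the nearest libraries ran from 1.61 points in 5′ UTRs to 6.04 points in 3′ UTRs. With 2 libraries against 2, an exact two-sided permutation test cannot give a p below 0.333, and each class gave that value. Over all features the group means were 24.0% ± 3.33 in ESCs and 29.7% ± 0.0869 in ESC-PGCLCs (SD, n = 2).

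**Figure D1:**
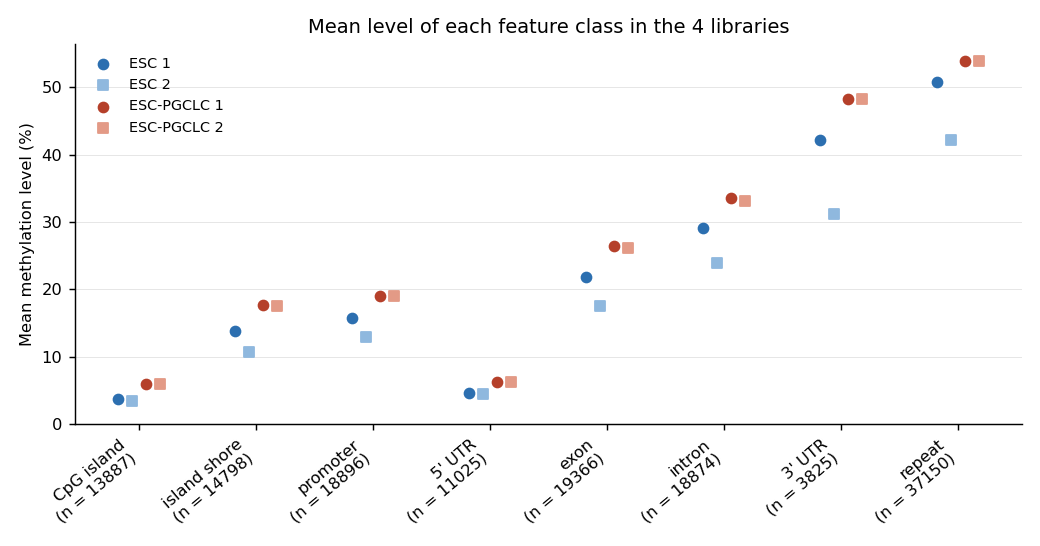
Mean methylation level in percent (vertical axis) of the features of each class in the 2 ESC libraries (blue) and the 2 ESC-PGCLC libraries (red), with 1 point for each library and the number of features under each class. The 2 red points lie almost together and above both blue points in every class, and the blue points are farthest apart in 3′ UTRs.

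Among the 137821 features, 12487 were called higher in ESC-PGCLCs (9.06%) and 647 were called lower (0.469%). By class, calls to the higher side ran from 3.95% of the 11025 5′ UTRs to 15.3% of the 3825 3′ UTRs. Most called gains ended at intermediate levels. Of the features called higher, 50.3% had a mean below 10% in ESCs, 67.9% had a mean between 30% and 70% in ESC-PGCLCs, and 5.09% had a mean above 70% there. The median level of all features was 14.2% and 11.8% in the ESC libraries and 26.6% and 25% in the ESC-PGCLC libraries, and the calls depend on keeping the levels as deposited. When the median of a library was first subtracted from its log2 odds, which moved the median difference over all features from 0.26 to -0.91 on the log2 odds scale, 33681 features were called and 19.7% of them were on the higher side, against 95.1% without centring. After this centring the median log2 odds difference was below 0 in every class and every gene list other than the oocyte-methylated imprinted genes (1.53) and the germline genes (0.65). Directions below are those of the deposited levels.

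The size of the change went with the level at the start and with CpG density. To avoid sorting features by the ESC values under comparison, they were sorted by their mean level in the 2 pESC libraries. The median change was 0.24 points for features below 2% in pESCs, 9.43 points between 10% and 20%, and 11.7 points between 20% and 40%. Above 80% it was -1.53 points over 742 features. Features called higher made up 33.3% of those between 10% and 20% and 0.331% of those between 60% and 80%. On the autosomes, changes were smaller where CpGs were denser. From the lowest to the highest quintile of CpG density, the share of autosomal islands called higher fell from 9.05% to 1.15%, and the median change of autosomal promoters fell from 3.19 to 0.30 points. On the X chromosome, the median change of islands stayed between 11.5 and 13.0 points in all 5 quintiles.

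**Figure D2:**
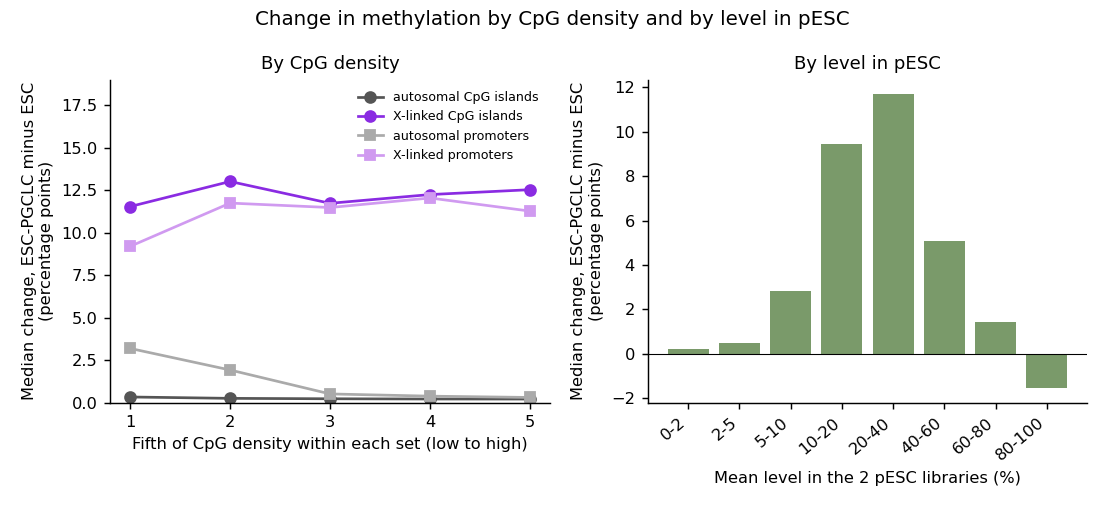
Median change in methylation, ESC-PGCLC minus ESC in percentage points (vertical axes), over quintiles of CpG density for islands and promoters on the X and on the autosomes (left) and over ranges of the mean level in the pESC libraries (right). X-linked features lie at 9.19 points or above in every quintile and autosomal ones at 3.19 points or below, and the right panel peaks at 11.7 points for features with 20% to 40% in pESCs.

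X-linked CpG islands were the islands with the most widespread gain. In female mammals one X chromosome is silenced by the long RNA Xist, its CpG islands then become methylated, and genes that escape silencing keep unmethylated islands. The 351 X-linked islands had mean levels of 4.54% and 3.92% in the ESC libraries and 17.2% and 17.6% in the ESC-PGCLC libraries, against 3.78% and 3.44% and then 5.62% and 5.63% for the 13530 autosomal islands. Of the X-linked islands 222 were called higher (63.2%) and none lower, against 3.81% higher and 0.0370% lower among autosomal islands. Both ESC-PGCLC levels lay above both ESC levels in 94.9% of X-linked islands, against 31.5% of autosomal islands and 43.0% of all features. The exact permutation p for the mean level was 0.333, the smallest that this design allows. The median change was 12.1 points on the X and 0.23 points on the autosomes, where chromosome means of the islands in ESC-PGCLCs ran from 3.81% on chromosome 14 to 7.31% on chromosome 8.

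**Figure D3:**
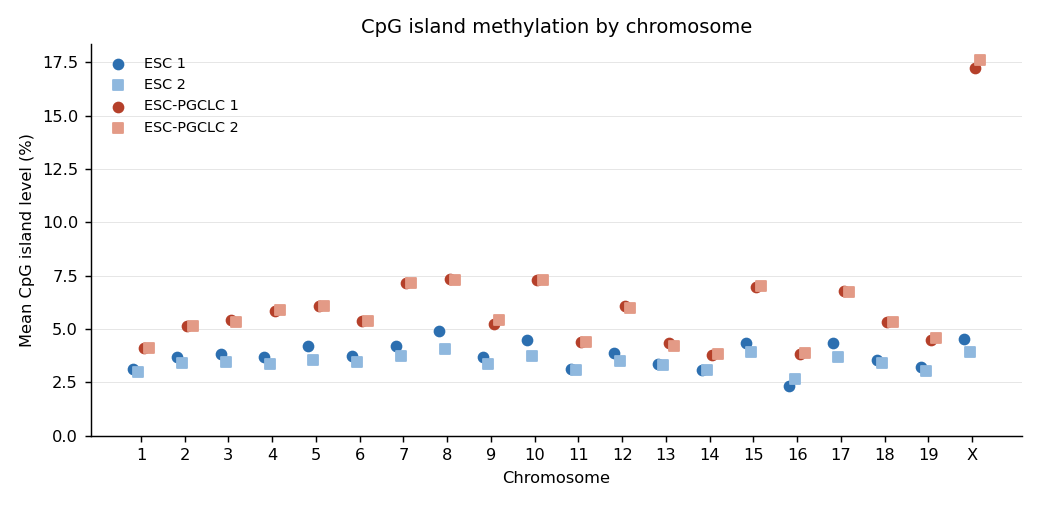
Mean CpG island methylation in percent (vertical axis) on each autosome and the X chromosome in the 2 ESC libraries (blue) and the 2 ESC-PGCLC libraries (red), with 1 point for each library. The red points on the X chromosome, at 17.2% and 17.6%, stand above those of every autosome, of which chromosome 8 has the highest mean at 7.31%.

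The X-linked gain was even along the chromosome and stopped at a moderate level. In ESC-PGCLCs, 249 of the 351 islands had a mean between 10% and 20%, and 28 had 30% or more. In windows of 20 Mb the median change lay between 11.97 and 13.1 points, except in the first window, where it was 9.60 points over 51 islands. After centring, 39 of them were called higher and 1 lower, and their median log2 odds difference was 1.38, against 2.54 without centring. Without any 1 of the 4 libraries, between 219 and 226 were called higher. The other X-linked classes moved with the islands. X-linked promoters rose from 19.2% and 15.8% to 29.5% and 29.6%, and 43.4% of the 518 were called higher.

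Of the X-linked islands, 18 stayed below 5% in ESC-PGCLCs, and all 18 were below 5% in ESCs as well. Among them, 6 overlapped genes of the list of X inactivation escape genes, namely Eif2s3x, Ddx3x, Jpx, Kdm5c, Kdm6a and Pbdc1. The share of all X-linked islands that overlap listed genes is not given here. Eif2s3x encodes a subunit of a translation initiation factor, and its island (chrX:94212661-94213312) had 0.97% and 2.17% in ESCs and 0.72% and 1.63% in ESC-PGCLCs. Jpx, a long RNA from the X inactivation centre, had 1.00% and 1.97% against 2.06% and 1.75% in its island. The groups overlapped at both. Another 6 of the 18 islands lay within Bcor, which encodes a Polycomb-associated corepressor, and 9 lay between 11.8 and 12.2 Mb, a grouping that was seen only after the values were known. By promoter, 10 of the 12 listed escape genes were tested and none was called, against 43.4% called higher over X-linked promoters. Their median change was 0.35 points, against 11.4 points over X-linked promoters. In 4 of the 10 both ESC-PGCLC levels lay above both ESC levels, and in none below, against 81.5% above over X-linked promoters. Utp14a had 0.94% and 1.42% in ESCs and 4.33% and 4.55% in ESC-PGCLCs (adjusted p = 0.0344), under the 10-point minimum. Ftx had 6.12% and 5.29% against 9.91% and 17.3% (adjusted p = 0.120). Mid1, the listed gene with the highest promoter level, had 32.6% and 26.6% in ESCs and 42.1% and 44.5% in ESC-PGCLCs (adjusted p = 0.145), and it was called when ESC replicate 1 was left out (16.7 points, adjusted p = 0.0421). No promoter level of Xist was compared. The exons of Tsix, the antisense RNA to Xist, had 2.06% and 1.93% in ESCs and 15.0% and 14.9% in ESC-PGCLCs (adjusted p = 0.00467); Tsix was picked after its values were seen.

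Genes whose imprint is laid down as methylation in the oocyte gained methylation. The gene lists used here were chosen with earlier results of these data known, so counts over a list are descriptive and not a test. Of the 23 listed genes, 16 had a promoter level in some library and 14 in all 4, and 10 of these 14 were called higher and none lower. Over all promoters, 8.80% were called higher and 0.476% lower. The median change was 27.4 points over the 14 and 0.59 points over the 18896 promoters tested. Their mean level was 13.1% and 12.4% in the ESC libraries and 37.8% and 36.8% in the ESC-PGCLC libraries (exact permutation p = 0.333, the smallest possible). In all 14, both ESC-PGCLC levels lay above both ESC levels, against 42.8% of all promoters.

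Zrsr1, an imprinted retrogene within Commd1 related to a splicing factor, had 1.65% and 1.91% in ESCs and 32.8% and 33.9% in ESC-PGCLCs (log2 odds difference 4.18 ± 0.251 SE, adjusted p = 0.00297). The promoter of Plagl1, which encodes a zinc finger protein of fetal growth, went from 0.61% and 1.49% to 32.3% and 32.4%. At Mcts2, a retrogene within H13, levels were 1.66% and 3.76% and then 43.9% and 43.3%. The groups were far apart in all 3 genes, and each started close to zero. Sgce and Peg10 start next to each other in opposite directions on chromosome 6, and their promoter values are not independent. Sgce had 3.25% and 3.36% in ESCs and 36.6% and 33.6% in ESC-PGCLCs. Mest, Nespas and Gnas rose by 27.0 to 28.9 points from ESC means below 8%. Nespas and Gnas overlap on chromosome 2, so their values are not independent either. Nap1l5 and Slc38a4 started higher and were called by a narrower margin. Nap1l5 had 22.6% and 26.0% against 47.6% and 44.0%, and lost its call without ESC-PGCLC replicate 1 (adjusted p = 0.388) or 2 (adjusted p = 0.218). Slc38a4 had 10.8% and 9.09% against 29.8% and 22.9%, and lost its call without any 1 of the 4 libraries (adjusted p from 0.0514 to 0.312).

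The 4 oocyte-methylated genes without a call were Snrpn, Nnat, Inpp5f and Grb10. Snrpn, a gene of the imprinted Prader-Willi region, had 34.5% and 44.8% in ESCs and 48.5% and 56.7% in ESC-PGCLCs (adjusted p = 0.283). Grb10, which encodes an adaptor that restrains growth, had 11.5% and 7.61% against 21.4% and 18.8% (adjusted p = 0.0814). Without ESC replicate 1, Grb10 (12.5 points, adjusted p = 0.0321), Inpp5f (17.5 points, adjusted p = 0.0441) and Nnat (23.9 points, adjusted p = 0.0432) were called. Airn, the RNA that silences Igf2r, had no promoter level, and its intron, picked after its values were seen, had 6.05% and 4.70% against 28.4% and 33.3% (adjusted p = 0.00548). The 5′ UTR of Igf2r itself, also picked so, had 0.60% and 0.23% against 14.8% and 18.5% (adjusted p = 0.00326).

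Of the 9 listed genes with a sperm-methylated imprint, 6 were tested by promoter, and none was called in either direction. Over all promoters 8.80% were called higher and 0.476% lower, a share at which few or no calls would be found among 6. No result is read from this absence of calls. The median change was -0.15 points. The difference between both lists of imprinted genes was not tested. H19, a maternally expressed long RNA, had 60.3% and 61.6% in ESCs and 56.2% and 57.6% in ESC-PGCLCs (adjusted p = 0.690), a difference of -4.05 points that became a call relative to the library medians (adjusted p = 0.0266). Meg3, the maternally expressed RNA of the Dlk1 domain, had 24.9% and 28.5% against 32.0% and 30.4%, and Dlk1, Rasgrf1 and Zdbf2 stayed below 3% in all 4 libraries. Igf2 had 5.78% and 4.36% in ESCs against 2.85% and 2.73% in ESC-PGCLCs (adjusted p = 0.202).

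Of the 36 listed germline and meiosis genes, 20 were tested by promoter, and 10 were called higher and none lower. This compares with 8.80% higher and 0.476% lower over all promoters, for a list that was also chosen with earlier results known. The median change was 28.9 points, against 0.59 points over all promoters. The median level of the 20 was 29.0% and 18.5% in the ESC libraries and 55.2% and 54.7% in the ESC-PGCLC libraries, so that the spread between the ESC libraries was large for this list, with ESC replicate 1 the higher in 17 of 20. Without ESC replicate 1, 16 were called, and on untransformed levels 6.

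Ddx4, the RNA helicase that marks germ cells, had 13.0% and 9.91% in ESCs and 47.9% and 45.5% in ESC-PGCLCs (log2 odds difference 2.67 ± 0.280 SE, adjusted p = 0.00577). Sohlh2, a transcription factor of early oocytes and spermatogonia, went from 13.4% and 5.32% to 58.1% and 68.9% (adjusted p = 0.00967). Sycp2, a part of the synaptonemal complex, had 17.6% and 8.24% and then 57.3% and 55.9%. In all 3 the lowest ESC-PGCLC level was far above the highest ESC level. Piwil2, Mael and Asz1, which act in the piRNA pathway that silences transposons, rose by 37.2, 32.5 and 40.3 points, and Mael lost its call without ESC-PGCLC replicate 2 (29.3 points, adjusted p = 0.0535). Hormad1, which coats meiotic chromosome axes, and Slc25a31, an ADP/ATP carrier of the testis, rose by 43.1 and 38.2 points. Taf7l, an X-linked subunit of a general transcription factor (28.1 points), and Spo11 (13.5 points), which makes the breaks of meiotic recombination, were called but were not when either ESC-PGCLC library was left out (adjusted p from 0.0777 to 0.368).

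The other 10 germline promoters did not pass, and several had discordant replicates. Dazl, an RNA-binding protein needed for germ cell commitment, had 39.7% and 12.03% in ESCs and 47.6% and 47.2% in ESC-PGCLCs (adjusted p = 0.292), and was called without ESC replicate 1 (35.4 points, adjusted p = 0.0195). Sycp3 had 21.4% and 21.6% in ESCs and 12.5% and 90.0% in ESC-PGCLCs, and Tdrd9 had 8.33% and 56.9% against 61.8% and 8.33%. No direction can be read from the last 2 genes, whose replicates disagree in at least 1 group.

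**Figure D4:**
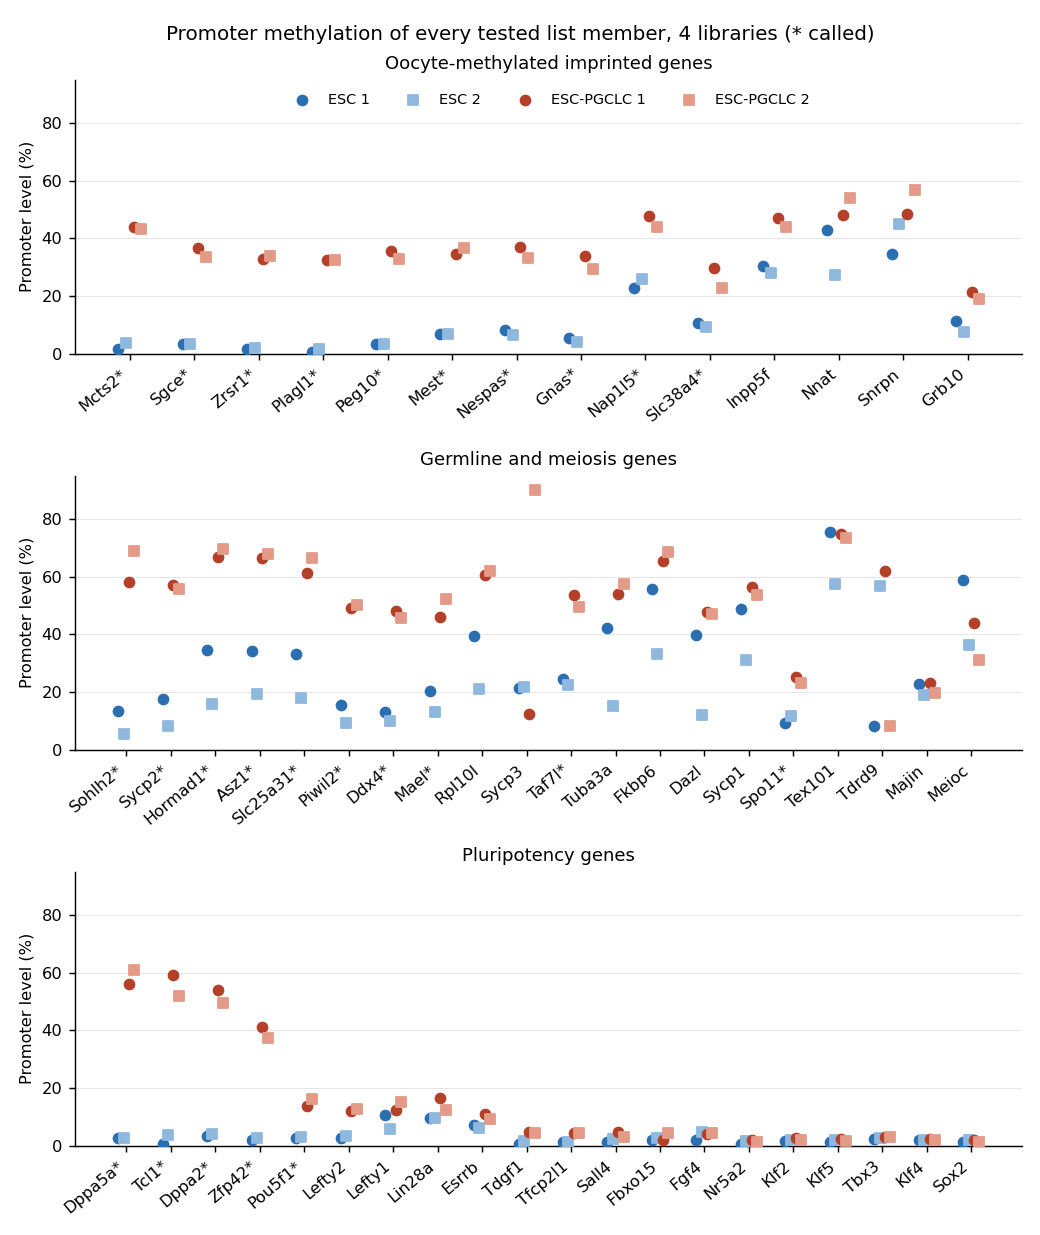
Promoter methylation level in percent (vertical axes) of every tested gene of 3 lists in the 2 ESC libraries (blue) and the 2 ESC-PGCLC libraries (red), ordered by the change, with called genes starred. Imprinted promoters have ESC-PGCLC means from 20.1% to 52.6%, and germline promoters reach higher with wider ESC spread. Most pluripotency promoters stay near the bottom of the axis apart from 5 called genes.

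Pluripotency promoters were mostly unmethylated in both cell types. Of the 24 listed genes 20 were tested, and 5 were called higher and none lower, against 8.80% higher and 0.476% lower over all promoters. In ESCs 17 had a mean below 5%, and in ESC-PGCLCs 11 still did. The median change was 3.30 points, against 0.59 points over all promoters. Dppa5a, an RNA-binding protein of naive cells, had 2.65% and 2.76% in ESCs and 56.1% and 61.1% in ESC-PGCLCs (log2 odds difference 5.22 ± 0.263 SE, adjusted p = 0.00297). Dppa2, a chromatin protein of early embryos, went from 3.29% and 4.05% to 53.9% and 49.6%. Tcl1, an AKT coactivator, and Zfp42, the naive marker also called Rex1, rose by 53.3 and 37.1 points. Pou5f1, which encodes OCT4, had 2.67% and 2.93% and then 13.7% and 16.1% (adjusted p = 0.00741), a change of 12.1 points that was 5.62 points and no longer a call after centring. Sox2, Klf2, Klf4, Klf5 and Tbx3, other factors of the naive network, stayed between 1% and 4% in all 4 libraries.

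For genes of PGC specification, 8 of 14 were tested, and 2 were called higher and none lower. Among all promoters 8.80% were called higher and 0.476% lower. The median change was 1.43 points, against 0.59 points over all promoters. Dppa3, also called Stella, which marks PGCs and protects DNA from methylation by restraining UHRF1, had 2.55% and 3.61% in ESCs and 39.5% and 40.1% in ESC-PGCLCs (adjusted p = 0.00302). Its promoter had 67.1% and 69.8% in the E9.5 PGC libraries and 32.4% and 34.96% in the E12.5 PGC libraries. Kdm6b, a histone H3K27 demethylase, went from 24.5% and 17.7% to 63.9% and 63.5%. Kit, the receptor of SCF, had 10.9% and 20.01% against 37.0% and 38.7% (adjusted p = 0.0526), and was called without ESC replicate 1 (17.9 points, adjusted p = 0.0311) or without ESC replicate 2 (26.9 points, adjusted p = 0.0263). Tfap2c, a PGC transcription factor, and Itgb3, which encodes the sorted surface protein CD61, stayed below 4% in all 4 libraries. Prdm14 had no promoter level and is given by its intron, picked after its values were seen, with 4.55% and 3.62% against 17.7% and 17.5% (adjusted p = 0.00907). The intron of Prdm1, which encodes BLIMP1, was picked in the same way and had 15.3% and 19.6% against 38.98% and 49.4% (adjusted p = 0.0272), a call lost without ESC replicate 1 (adjusted p = 0.0700), ESC replicate 2 (adjusted p = 0.0719) or ESC-PGCLC replicate 2 (adjusted p = 0.181). These are methylation levels and not expression, so they show neither the presence nor the absence of the labelled cell type.

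Among genes of the methylation machinery, 20 of 21 were tested, 2 were called higher and 1 lower, against 8.80% higher and 0.476% lower over all promoters, and the median change was 0.71 points. Mbd3, a subunit of the NuRD complex of repressors, had the largest promoter gain of any autosomal gene named by the rule. Its promoter on chromosome 10 had 1.79% and 2.45% in ESCs and 73.9% and 74.3% in ESC-PGCLCs (log2 odds difference 6.48 ± 0.265 SE, adjusted p = 0.00297). Hells, a chromatin remodeller needed for methylation of repeats, had 4.92% and 6.57% and then 45.8% and 37.5%. Dnmt3b, a methyltransferase of the epiblast, went the other way, from 13.6% and 12.7% to 1.86% and 1.23% (adjusted p = 0.00552). Dnmt1, Dnmt3a, Uhrf1, Tet1, Tet2 and Tet3 were not called.

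No promoter was called on 3 further lists, against 8.80% called higher and 0.476% lower over all promoters. At that share few or no calls would be found in lists of this size, so no result is read from their absence. For formative epiblast and gastrulation genes, 16 of 22 were tested, the median change was -0.29 points and 15 had a mean below 5% in ESC-PGCLCs. For trophoblast genes, 9 of 11 were tested with a median change of 0.56 points. Krt18, a keratin of simple epithelia, had 31.7% and 23.8% in ESCs against 15.0% and 15.5% in ESC-PGCLCs (adjusted p = 0.103), and was called without ESC replicate 2 (-16.4 points, adjusted p = 0.0403). Genes of fibroblasts, the cell type of feeders, were listed to look for other cells in the cultures, and 8 of 12 were tested with a median change of 0.40 points. Their promoters ran from ESC means of 2.30% to 37.4% and from ESC-PGCLC means of 1.98% to 55.7%. Col1a2, a collagen of fibroblasts, had 46.3% and 28.5% against 16.5% and 21.2% (adjusted p = 0.148). The part of feeder DNA in any level was not tested.

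The largest promoter changes were found by a fixed rule among named genes with a level in all 12 libraries. Rbm41, an X-linked gene for an RNA-binding protein (chrX:139889511-139998595), had 5.64% and 4.14% in ESCs and 74.2% and 83.2% in ESC-PGCLCs. Rlbp1, a retinal carrier protein, had 13.3% and 6.84% and then 74.0% and 78.6%. Mbd3 and the pseudogene Pgam1-ps2 completed the gains. The losses were fewer and smaller. Srp9, which encodes a protein of the signal recognition particle (chr1:182124737-182132407), had 58.6% and 52.5% in ESCs and 1.14% and 0.71% in ESC-PGCLCs (log2 odds difference -6.03 ± 0.288 SE, adjusted p = 0.00297). Other parts of Srp9, picked after the values were seen, did not fall, with a 5′ UTR below 2% in all 4 libraries and introns at 10.6% and 9.46% against 41.7% and 35.5% (adjusted p = 0.00736). Selenoi, an enzyme of phospholipid synthesis, went from 79.1% and 56.7% to 20.5% and 15.7%, and AI854703 from 48.6% and 36.3% to 7.89% and 3.16%. AI854703 lost its call without ESC replicate 1 (adjusted p = 0.0645) or 2 (adjusted p = 0.0691). Unc119, a carrier of lipid-modified proteins, had 45.9% and 39.2% against 2.75% and 2.48%.

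Among the CpG islands with the largest gains, some lay inside genes and away from gene starts. An island in an exon of Tenm3, a cell adhesion gene (chr8:48228508-48229133), had 3.83% and 3.45% in ESCs and 70.3% and 73.2% in ESC-PGCLCs (adjusted p = 0.00297). The island in Zmynd8 (chr2:165807681-165807917) had 2.03% and 3.34% against 66.6% and 74.0%. These islands lay 41852 and 49767 bases from the nearest annotated gene start, whereas the island at Gm3375 on chromosome 7 overlapped a gene start. Autosomal islands called higher were shorter than those not called, with a median of 371.5 against 624 bases, and had fewer CpGs, with 8.56 against 10.2 per 100 bases. Among all islands, 5 were called lower. The island at Mthfsl (chr9:88719533-88719828) had 38.3% and 24.0% in ESCs and 7.83% and 6.72% in ESC-PGCLCs (adjusted p = 0.0208), and those at Atp2c2, Slc2a12 and Tbx4 fell by 12.2 to 12.8 points. The Atp2c2 island lost its call without ESC-PGCLC replicate 1 (adjusted p = 0.282) or 2 (adjusted p = 0.265), and the Slc2a12 island without ESC replicate 1 (-8.95 points) or without ESC-PGCLC replicate 1 (adjusted p = 0.0792) or 2 (adjusted p = 0.0663).

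Repeat elements were deposited as pooled intervals of a consensus element, without a genomic position, and the 37150 compared differed widely by family. Of all repeats, 8.97% were called higher and 0.269% lower. IAP elements are active retroviruses of the mouse that resist demethylation in germ cells, and their internal parts had 72.1% and 67.1% in ESCs and 71.1% and 70.9% in ESC-PGCLCs, with 7 of 575 intervals called higher. IAP LTRs had 69.3% and 62.8% against 69.99% and 70.1%, with 4 of 155 called higher. L1MdA, a young family of LINE elements, had 57.2% and 51.1% against 56.5% and 56.7%, and 1.52% of its 6106 intervals were called higher. The ESC and ESC-PGCLC libraries overlapped for IAP internal parts and L1MdA, and lay 0.68 points apart at the nearest for IAP LTRs. They also overlapped for the L1MdF family, with 56.18% and 49.50% in ESCs against 56.16% and 56.17% in ESC-PGCLCs. The same held for the retroviral repeat MMERVK10C-int and for MERVL with its MT2 repeats.

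B1 and B2, short elements copied by the machinery of LINEs, gained more. B1 had 39.8% and 31.6% in ESCs and 49.5% and 49.7% in ESC-PGCLCs, and 232 of its 1181 intervals were called higher. B2 had 46.6% and 35.9% against 55.0% and 55.0%, with 42 of 273 called. The median change was 12.3 points for B1 and 12.6 points for B2, and on the log2 odds scale it turned from 0.80 to -0.37 for B1 and from 0.78 to -0.39 for B2 after centring. Within LINEs, the L1MdTf family had 52.7% and 39.9% against 57.8% and 57.9%, with 16.8% of 1132 intervals called higher. L1MdN, which was set apart from other L1Md families after its values were seen, had 41.4% and 35.1% against 58.3% and 58.2%, with 41.9% of 210 called. After centring the median log2 odds difference was below 0 in every repeat family named here, L1MdN included (-0.27). MaLR elements had 14.8% of intervals called higher, ERV1 10.4%, ERVK 8.92% and satellites 14.5%, and no interval was called among the 25 of MERVL and its MT2 repeats.

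**Figure D5:**
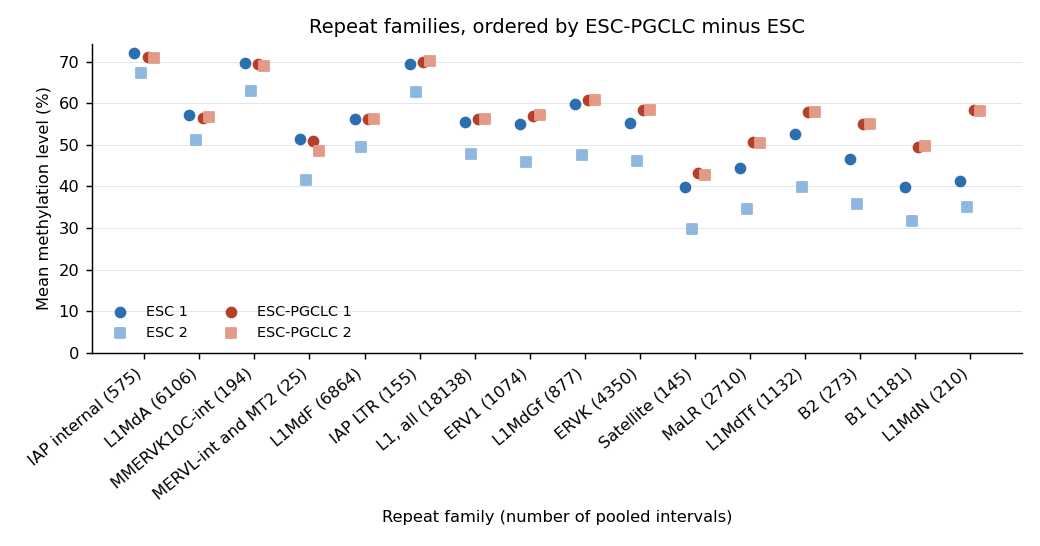
Mean methylation level in percent (vertical axis) of repeat families in the 2 ESC libraries (blue) and the 2 ESC-PGCLC libraries (red), ordered by the difference between the groups, with the number of pooled intervals in parentheses. At the left ESC replicate 1 is level with the red points, as for IAP internal parts at 72.1% against 71.1% and 70.9%, and at the right both blue points lie below them, as for L1MdN at 41.4% and 35.1% against 58.3% and 58.2%.

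The largest gains and losses among single repeat intervals did not follow the family means. A satellite interval of MMSAT4 had 5.68% and 7.70% in ESCs and 81.4% and 85.1% in ESC-PGCLCs, and an interval of the retroviral repeat RLTR16C_MM had 4.17% and 6.86% against 78.0% and 87.9%. For B3A, a relative of B2, the larger of 2 named intervals rose by 81.0 points. The interval with the largest fall belonged to RSINE1, with 76.7% and 72.6% in ESCs and 22.2% and 13.3% in ESC-PGCLCs. Intervals of L1MdF_IV, MER5A and B1_Mus1 fell by 55.2, 52.4 and 47.7 points, although 1.86% of L1MdF intervals and 19.6% of B1 intervals were called higher.

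The changes were also read in the libraries of parthenogenetic origin, which share no library with this comparison. Of the 12394 features called higher that had a level in those libraries too, 98.2% had both pESC-PGCLC levels above both pESC levels, against 40.8% of all features. Of the 632 called lower, 86.7% had both pESC-PGCLC levels below both pESC levels, against 14.4% of all. Over the called-higher features with a level in all 12 libraries, the median was 10.7% and 8.91% in ESCs and 44.5% and 44.6% in ESC-PGCLCs, 9.76% and 11.02% in pESCs and 38.8% and 38.6% in pESC-PGCLCs, 60.8% and 60.2% in E9.5 PGCs, and 36.0% and 36.7% in E12.5 PGCs. X-linked islands reached 13.3% and 13.8% by median in pESC-PGCLCs and 14.2% and 14.4% in ESC-PGCLCs. Stem cell libraries of both origins shared a replicate pattern at autosomal islands, with medians of 1.54% and 2.11% in ESCs and 1.49% and 2.13% in pESCs. For features called higher the order of replicates was not shared. The pESC libraries, also used above to sort features, may thus not be independent of the ESC libraries, which was not tested. A fit over the 8 stem cell and PGCLC libraries called a difference between the origins in the induction change at 50 of 136848 features (0.0365%), with 25 in each direction. These calls needed the adjusted p and the 10-point difference, without a condition on the overlap of replicates. Without 1 of the 4 libraries of parthenogenetic origin, at most 1 feature was called. The 50 included promoters of oocyte-methylated imprinted genes, and those promoters lost their calls when such a library was left out. Zrsr1, at 40.3% and 40.1% in pESCs and 37.0% and 36.6% in pESC-PGCLCs, had no gain there, and its change differed by 34.9 points between the origins (adjusted p = 0.00721).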

How the data were processed

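RRBS was done on 12 mouse libraries in 6 groups of 2, of which the 2 ESC and 2 ESC-PGCLC libraries were compared here. Per the labels and the study's methods, the authors aligned reads to mm10 with Bismark 0.16.3 and Bowtie2, and corrected levels for non-conversion. The deposited values are methylation levels, as a fraction from 0 to 1, of features in 8 overlapping classes. The coverage minimum and the promoter definition are not given in the sources used here, and counts were not used here, so no counting interval was computed and features of low coverage cannot be told apart. Low depth widens the spread between replicates.

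Groups came from the sample titles. Of 30073 gene identifiers, 30060 were named by GENCODE M21. As a check of the build, 99.99% of 13881 islands had an observed over expected CpG ratio above 0.6 on GRCm38. The test was limma 3.58.1 (R 4.3.3) on log2 odds, with an offset of 0.01 added to the methylated and the unmethylated fraction. P-values were adjusted by Benjamini-Hochberg over the 137821 features, and a feature was called at adjusted p below 0.05, a difference of at least 10 points and no overlap of replicates. The test was also run on simulated levels, with shifts only in features of intermediate level and the same spread in both groups. The ESC pair here spread more than the ESC-PGCLC pair, so that run does not measure the errors in these data. Mean levels were compared with exact two-sided permutation tests (scipy 1.17.1). A second fit of 8 libraries tested origin by induction, with the same thresholds but no condition on the overlap of replicates. Sequence was read with pysam 0.24.0, and other values used Python 3.11.15, pandas 2.3.3 and numpy 2.4.6. Plots used matplotlib 3.10.9.

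Genes were named from 10 lists by promoter, with the X escape list and the repeat families. Named as well were the 4 largest called gains and 4 largest called losses among islands, promoters and repeats. These had levels in all 12 libraries, no compared level at exactly 0% or 100%, an official gene name and a chromosome other than 18. Exceptions are marked where they occur. A result that the rule names among the islands is not reported here. The members and lists were chosen with earlier results of these data known. Alternatives were another offset, untransformed levels, centring of libraries on their median log2 odds (converted back to levels for the 10-point minimum), fits of more libraries, a replicate block, other filters and leaving out each library.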

Additional observations from a re-analysis of the deposited data

Results flagged for a closer look

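For 5 named promoters the change on induction differed between ESC and pESC origin in the 8-library limma fit. Zrsr1 (34.9 points, adjusted p = 0.00721), Mest (33.1 points, adjusted p = 0.0488), Sgce (27.4 points, adjusted p = 0.0266) and its neighbour Peg10 (26.6 points, adjusted p = 0.0279) gained more from ESCs. In pESCs, Mest had 47.6% and 44.7% and Sgce 39.3% and 35.4%, and in pESC-PGCLCs 45.2% and 38.7% and 42.7% and 40.8%. At Unc119 the difference was -41.2 points (adjusted p = 0.0142). Its promoter had 45.0% and 45.5% in pESCs, 44.9% and 48.2% in pESC-PGCLCs, and 2.75% and 2.48% in ESC-PGCLCs, the lowest of the 12 libraries. In its 5′ UTR all 12 libraries were below 3%, and in its introns, picked after the values were seen, ESC-PGCLCs had 26.6% and 32.9% against 48.1% and 46.7% in pESC-PGCLCs.

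None of the 5 differences kept its call when a pESC or pESC-PGCLC library was left out, and adjusted p-values then reached 0.101 for Zrsr1 and 0.125 for Unc119. Without 1 ESC or ESC-PGCLC library, Zrsr1 and Unc119 kept their calls and the other 3 promoters did not. With a replicate block, Mest (adjusted p = 0.0990) and Peg10 (adjusted p = 0.0551) lost their calls. Zrsr1 was the only 1 of the 5 called with an offset of 0.1 (adjusted p = 0.0106). The design gives 2 libraries to each of the 4 groups, and why origins differed was not tested.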

How the results depend on the processing

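The main test called 13134 features, 12487 higher and 647 lower. The count was 24423 in a fit of 12 libraries (22977 higher, 1446 lower), 19923 in a fit of 8 libraries (1230 lower) and 33681 after centring on log2 odds (6629 higher, 27052 lower). Features called lower numbered 334 at a minimum of 20 points, 424 with an offset of 0.1 and 283 on untransformed levels. Leaving out 1 library gave 10770 to 30151 calls, 10067 to 29368 higher and 703 to 1963 lower. The most calls came without ESC replicate 1, where 11777 of the 12487 higher calls were kept. Differences between origins numbered 10 with an offset of 0.1 and 0 to 165 without 1 library. The 0 came without pESC-PGCLC replicate 1 or 2 or pESC replicate 2, 165 came without ESC-PGCLC replicate 1, and the fit of all 8 libraries gave 4053 features at an unadjusted p below 0.05.

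Replicate numbers did not pair the libraries (correlation of same-numbered deviations -0.0394, 2 pairs). With a replicate block 19846 features were called (1450 lower), 12473 of the 12487 higher calls were kept, and of 83 named features 7 passed newly and none was lost.

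Differences of medians in place of means were 12.8 points over all features, 0.252 in islands, 1.67 in shores, 1.21 in promoters, 0.281 in 5′ UTRs, 12.1 in introns, 12.4 in X-linked islands and 27.9 in oocyte-methylated imprinted promoters, for which gene bodies gave 21.4. X-linked islands called higher numbered 23 at a minimum of 20 points, 39 after centring and 157 on untransformed levels. Among the named features, 13 lost their call on untransformed levels, 10 with an offset of 0.1 and 8 after centring, and 4 to 8 without 1 library. The causes were not tested. A coverage minimum was not run, since no coverage was used here. Unknown depth and 2 libraries per group limit every call.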
